A study of Mus musculus with 21 samples.

Results

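The proteasome subunit genes are the protein-coding genes whose symbol is Psm followed by a letter from a to g and a number, and 48 of the 21974 protein-coding genes in the deposited table met that rule. They were read in bulk RNA-seq libraries from mouse hepatocellular carcinomas grown from Hepa1-6, a hepatoma cell line, in C57BL/6 mice. The design crossed B-cell depletion with antibody treatment, so that the response to combined anti-PD1 and anti-CTLA4, which block the T-cell checkpoint receptors PD-1 and CTLA-4, could be set against an isotype antibody with and without B cells. There were 5 libraries of WT tumours given the combination, 5 of WT tumours given isotype, 5 of B-cell-depleted tumours given the combination and 6 of B-cell-depleted tumours given isotype. All 4 groups share the Hepa1-6 graft and its single cell line of origin. The labels list B-cell depletion as the genotype and do not give the means of depletion, the antibody doses, the time of collection or the age of the mice, nor whether each library came from its own mouse. The p-values therefore measure the spread between these libraries.

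The proteasome degrades proteins marked with ubiquitin and produces most of the peptides that MHC class I molecules display. Its core is a stack of alpha and beta rings, in which Psmb5, Psmb6 and Psmb7 carry the catalytic sites. Interferon-gamma induces Psmb8, Psmb9 and Psmb10, which take the places of Psmb5, Psmb6 and Psmb7 in newly built immunoproteasomes, and Psme1 and Psme2, which form the PA28 alpha-beta activator. Immune cells express these 5 genes without stimulation as well, and tumour cells acquire them under interferon. The 19S regulatory particle, made of Psmc ATPases and Psmd non-ATPase subunits, binds and unfolds ubiquitinated proteins, and the Psmg chaperones help to assemble the core.

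Library totals ran from 9.52 to 19.17 M counts, with a median of 15.9 M. The tumours differed in their cell content along with the groups. The summed level of 7 T-cell markers was 280 to 457 CPM (counts scaled by the library total) in WT combination libraries and 59.3 to 118 CPM in WT isotype libraries, and that of 9 hepatocyte and hepatoma markers was 352 to 1695 CPM and 1675 to 4872 CPM in the same 2 groups. In B-depleted tumours the T-cell sum was 166 to 232 CPM with the combination and 39.1 to 158 CPM with isotype. The depletion label was visible under the combination, where 7 B-cell markers summed to 12.9 to 26.4 CPM in B-depleted and 31.3 to 70.0 CPM in WT tumours. Under isotype the sums overlapped, at 5.51 to 13.9 CPM in B-depleted and 7.41 to 17.0 CPM in WT tumours, and most of each sum was Cd22, at 5.07 to 12.7 and 4.88 to 14.1 CPM. Ms4a1, which encodes CD20, was at 0 to 0.104 CPM in B-depleted isotype and 0.110 to 1.05 CPM in WT isotype libraries, and Fcmr was at 0 in all 6 B-depleted isotype libraries and at 0.0573 to 0.599 CPM in the 5 WT isotype libraries. Replicates 1 and 2 of WT isotype and replicate 5 of the B-depleted combination group stood apart from their groups, as did replicate 6 of B-depleted isotype. They did so on the first principal component, in liver transcripts or in the inducible subunits. Some of the results that rest on them are also given without them.

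The inducible subunits lie in 2 clusters of the GRCm38 genome. Psmb9 (chr17:34181987-34187764, minus strand) and Psmb8 (chr17:34197721-34201454, plus strand) flank the peptide transporter gene Tap1 in the MHC region, and Psme1 (chr14:55578123-55581529) and Psme2 (chr14:55587441-55591113) lie side by side. Psmb10 stands alone at chr8:105935735-105938444. The promoters of 40 of the 48 genes, 250 bases before to 50 after the start in RefSeq on GRCm38.p6, were searched on both strands for 3 motifs. These were an interferon-response motif (GAAA, any 2 bases, GAAA; TTTC, any 2 bases, TTTC on the reverse strand), a STAT motif (TTCNNNGAA, its own reverse) and the antioxidant-response core (TGACNNNGC, reverse GCNNNGTCA), which the constitutive-subunit activator NFE2L1 is known to bind. The matches in the inducible genes and in their constitutive partners are shown because these are the promoters of the genes compared below, each over 30 bases read in the direction of the gene with the match in capitals.
Psmb8, STAT motif, chr17:34198088-34198117, plus strand: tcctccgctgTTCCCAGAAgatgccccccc
Psme1, interferon-response motif, chr14:55578493-55578522, plus strand: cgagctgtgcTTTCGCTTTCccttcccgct
Psmb5, antioxidant-response core, chr14:54618023-54618052, minus strand: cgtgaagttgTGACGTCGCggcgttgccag
Psmb6, antioxidant-response core, chr11:70525338-70525367, plus strand: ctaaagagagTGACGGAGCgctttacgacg
The Psmb8 and Psme1 matches fall inside annotated exons. The interferon-response motif was found in 5 of the 40 promoters, of which 1 belongs to an inducible gene, against 3.99% of all genes in the promoter table. The STAT motif was found in 3 of 40, with 1 inducible gene, against 9.55%. The antioxidant-response core was found in 6 of 40, with 0 inducible genes, against 14.0%. A match is a string of letters and was not tested as a binding site.

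Of the 48 genes, 47 had enough reads to be tested. Psmb11, the catalytic subunit of the thymic proteasome, had 14 reads over all libraries and was at 0 in 10 of them. Psma8, the testis form of an alpha subunit, had 208 reads in all and was tested. Levels were compared between genes as mean CPM per kilobase of the principal transcript. On that scale Psme1 ranked 1 among subunit genes in WT combination tumours at 110 ± 6.59 (SD, n = 5) and Psmb8 ranked 2 at 105 ± 11.8. In WT isotype tumours the first place was held by Psma7, an alpha-ring subunit, at 93.8 ± 6.32, followed by Psmb6 at 82.0 ± 3.89, with Psme1 at 75.8 ± 9.42 and Psmb8 at 75.7 ± 18.5 in the next places. The last 3 of these do not differ beyond their spread. Psmb9 ranked 4 in WT combination tumours and 18 in WT isotype tumours, Psme2 ranked 6 and 24, and Psmb10 ranked 18 and 34. The order between genes depends on the length used. Psmb9 has 1352 bases in its principal transcript and 3660 in all annotated exons, beside 1311 and 1705 for Psmb10. Psmb5 stood low in both groups, at 19.01 ± 1.66 CPM per kilobase in WT combination and 17.6 ± 1.99 in WT isotype tumours.

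All 5 inducible genes were higher in WT combination than in WT isotype tumours (edgeR quasi-likelihood test, Benjamini-Hochberg adjusted p under 0.05 over 19061 genes), by 1.42-fold for Psmb8 up to 1.64-fold for Psmb10. In that comparison 25.0% of all genes tested were called higher and 25.0% lower, so calls in either direction were common. The groups did not overlap for 4 of the 5 genes, against 15.0% of all genes lying wholly above. Of the 42 other subunit genes tested, 20 were lower, 0 were higher and 22 were not called. Their median log2 fold change was -0.23, beside 0.69 for the inducible genes and -0.00087 for all genes.

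Psmb10 (ENSMUSG00000031897.9), the inducible trypsin-like subunit, had 55.8, 57.1, 64.2, 57.3 and 55.5 CPM in WT combination libraries, against 36.4, 46.03, 28.5, 32.6 and 36.1 CPM in WT isotype libraries. Every combination library was above every isotype library. The log2 fold change was 0.71 (SE 0.17, adjusted p = 0.00201). Psmb9, which takes the caspase-like position, had 95.1, 104.0, 109.8, 91.9 and 88.4 CPM in WT combination libraries, against 71.7, 79.9, 44.8, 44.4 and 64.5 CPM in WT isotype libraries. The groups were again apart, with isotype replicates 1 and 2 nearest to the combination range, and the log2 fold change was 0.71 (SE 0.19, adjusted p = 0.00589).

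Psmb8, which takes the chymotrypsin-like position, had 186.1, 166.2, 195.3, 163.1 and 147.0 CPM in WT combination libraries, against 144.6, 164.4, 93.8, 102.3 and 110.8 CPM in WT isotype libraries. Here the groups overlapped, because isotype replicate 2 was above 2 combination libraries. The log2 fold change of 0.50 (SE 0.17) had an adjusted p of 0.0219. That call was lost without combination replicate 3 (adjusted p = 0.0506) or without isotype replicate 3, 4 or 5 (adjusted p = 0.0648, 0.0653 and 0.0604), and with no filter on low counts (0.0722), and without isotype replicates 1 and 2 the log2 fold change was 0.75.

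The PA28 activator genes moved like the catalytic subunits. Psme1 had 128.3, 127.7, 127.0, 117.6 and 112.0 CPM in WT combination libraries, against 94.3, 95.1, 75.4, 72.3 and 84.0 CPM in WT isotype libraries. The groups did not overlap, and Psme1 had the smallest SE of the 5 genes, with a log2 fold change of 0.56 (SE 0.11, adjusted p = 0.000439). Psme2 had 57.8, 65.5, 62.7, 63.0 and 58.9 CPM in WT combination libraries, against 40.7, 49.8, 34.1, 32.7 and 36.8 CPM in WT isotype libraries. These groups were also apart, with a log2 fold change of 0.69 (SE 0.13, adjusted p = 0.000408). The intronless copy Psme2b is 96.2% identical to Psme2 over 837 bases, so reads may be divided between the 2 genes; Psme2b was itself higher, with a log2 fold change of 0.81 (adjusted p = 0.00454).

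**Figure D1:**
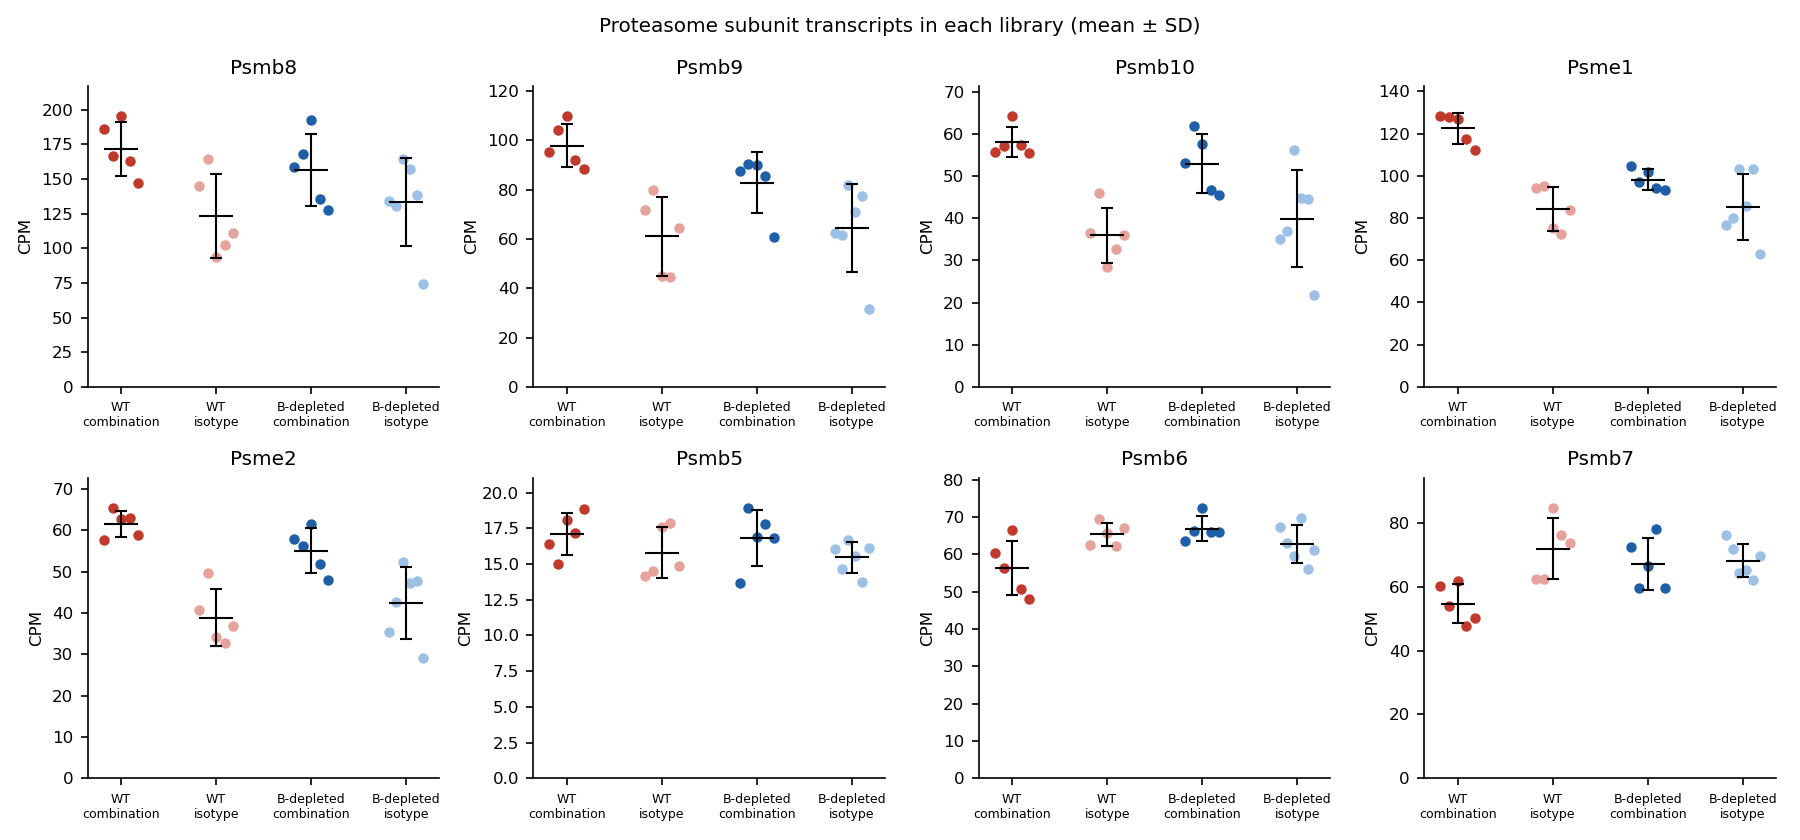
CPM of 8 subunit genes in each library, one panel per gene, with the 4 groups along the x axis; points are libraries and bars are the mean ± SD (n = 5, 5, 5 and 6). The mean of each of the 5 inducible genes is highest in WT combination tumours, while Psmb5 stays between 13.65 and 18.95 CPM in every library and the mean of Psmb7 is lowest in WT combination tumours.

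None of the 3 constitutive partners was called higher in WT combination tumours, and Psmb7 was called lower. Psmb5 had 16.4, 14.97, 18.1, 17.2 and 18.8 CPM in WT combination libraries, against 14.1, 14.5, 17.6, 17.9 and 14.8 CPM in WT isotype libraries. The groups overlapped and the log2 fold change was 0.13 (SE 0.10, adjusted p = 0.296). Psmb6 had 60.3, 56.3, 66.4, 50.7 and 48.2 CPM in WT combination libraries, against 62.4, 69.6, 65.7, 62.4 and 67.1 CPM in WT isotype libraries. Combination replicate 3 reached into the isotype range, and the log2 fold change of -0.20 (SE 0.081) missed the threshold at adjusted p = 0.0513. Psmb6 was called lower by DESeq2 (adjusted p = 0.0341), by limma voom (0.0407), with RLE scaling (0.0451) and in 7 of the fits that left out 1 library, at adjusted p of 0.00418 (without combination replicate 3) to 0.0464. Psmb7 had 60.1, 54.0, 61.7, 47.6 and 50.04 CPM in WT combination libraries, against 62.5, 62.4, 84.7, 76.1 and 73.5 CPM in WT isotype libraries. It was lower without overlap, by -0.38 on the log2 scale (SE 0.11, adjusted p = 0.0065). Psmb7 exons overlap Nek6 on the other strand and Psmb9 exons overlap Tap1, and the strand setting of the counting is not given in the sources used here.

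The ratio of each inducible subunit to its constitutive partner within a library does not depend on how libraries are scaled. The Psmb9 to Psmb6 read ratio was 1.58 to 1.85 in WT combination libraries, against 0.681 to 1.15 in WT isotype libraries. The log2 ratio differed by 0.94 (exact permutation test, two-sided, p = 0.00794, adjusted p = 0.0397 over 15 tests), and 0.0079 is the smallest p that 5 against 5 libraries allow. The Psmb10 to Psmb7 ratio was 0.928 to 1.20 in WT combination libraries, against 0.337 to 0.738 in WT isotype libraries, a log2 difference of 1.096 with the same p. For Psmb8 to Psmb5 the ranges overlapped, at 7.81 to 11.3 in WT combination libraries and 5.33 to 11.3 in WT isotype libraries, and the log2 difference of 0.39 did not pass (exact permutation test, adjusted p = 0.298). Per kilobase of transcript, Psmb9 made up 50.7% ± 1.79 of the Psmb9 and Psmb6 sum in WT combination tumours and 35.1% ± 5.67 in WT isotype tumours (SD, n = 5 each). Psmb10 made up 48.5% ± 2.37 and 30.9% ± 6.30 of its pair in the same groups, and Psmb8 84.6% ± 2.11 and 80.5% ± 5.18. These shares depend on the length used. Per kilobase of all annotated exons of each gene they were 47.1% and 31.9% for Psmb9, 68.1% and 49.95% for Psmb10, and 72.6% and 66.8% for Psmb8 in the same groups. Without isotype replicates 1 and 2 the differences were 1.17 for Psmb9 to Psmb6 and 1.36 for Psmb10 to Psmb7, each with adjusted p = 0.0511 (exact permutation test), in an alternative chosen after the data were seen. Leaving out any 1 WT combination library also moved the adjusted p of both past the threshold, to 0.0595 for Psmb9 to Psmb6 and to between 0.0595 and 0.0794 for Psmb10 to Psmb7, with the groups then 4 against 5.

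**Figure D2:**
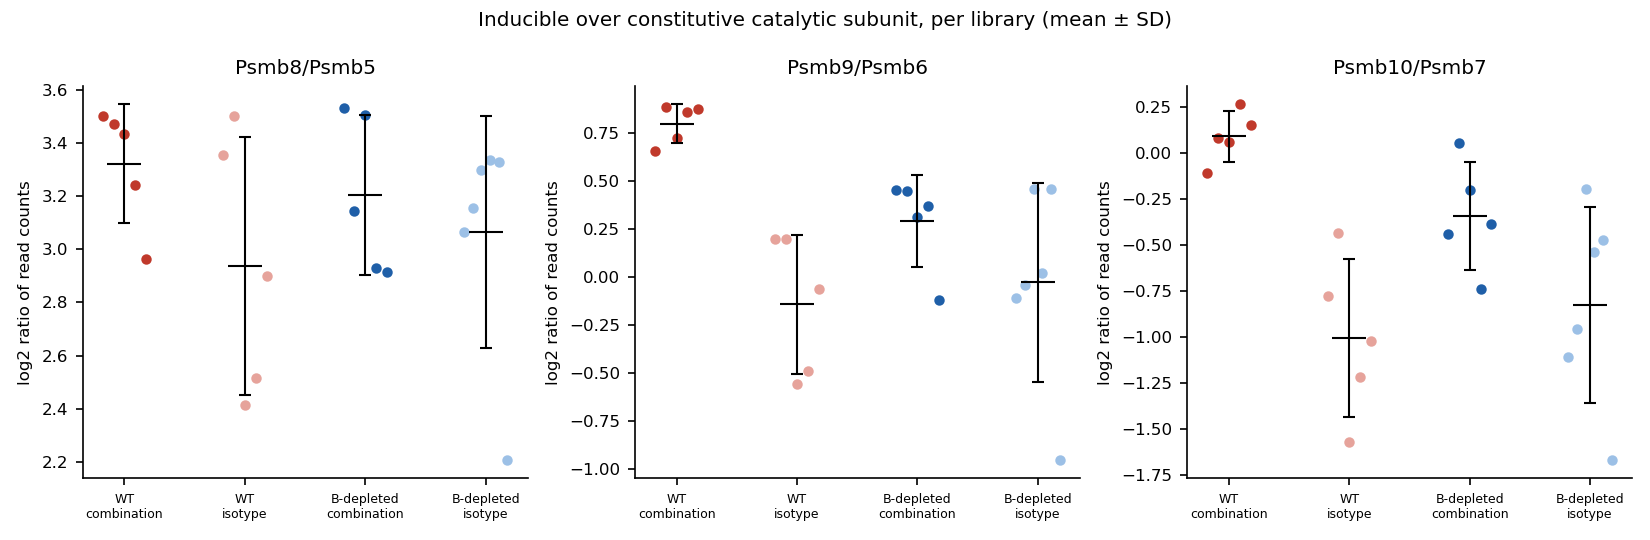
Log2 ratio of read counts of each inducible catalytic subunit to its constitutive partner in every library of the 4 groups; points are libraries and bars are the mean ± SD (n = 5, 5, 5 and 6). WT combination libraries lie above WT isotype libraries without overlap for Psmb9/Psmb6 and Psmb10/Psmb7, and the Psmb8/Psmb5 groups overlap.

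In the regulatory particle, 9 of 11 Psmd non-ATPase subunits were lower in WT combination tumours, all without overlap, while 14.3% of all genes lay wholly below. Psmd12, a scaffold subunit of the lid, had 68.8, 49.9, 60.8, 49.4 and 47.2 CPM in WT combination libraries, against 74.2, 72.4, 82.7, 86.7 and 83.5 CPM in WT isotype libraries. The groups did not overlap, and the log2 fold change was -0.52 (SE 0.092, adjusted p = 0.000294). Psmd3, another lid subunit, was lower by -0.48 (adjusted p = 0.000864). Psmd14, the deubiquitinase of the lid, was at -0.28 and the ubiquitin receptor Psmd4 at -0.33. The 2 exceptions were the large base subunit Psmd2 at 0.03 and Psmd8 at 0.04, with adjusted p of 0.725 and 0.65.

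Of the 6 ATPases that form the base ring, Psmc5 and Psmc4 were lower and 4 were not called, where 25.0% of all genes were called lower. Psmc5 had 35.4, 30.5, 37.3, 31.6 and 29.4 CPM in WT combination libraries, against 38.8, 37.9, 48.3, 46.2 and 44.0 CPM in WT isotype libraries. The groups lay close but apart, and the log2 fold change was -0.37 (SE 0.095, adjusted p = 0.0036). Psmc4 was at -0.33 (adjusted p = 0.00345), and the other 4 lay between -0.17 and 0.09.

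In the core, 1 of 8 alpha genes and 1 of 4 structural beta genes were called lower, against 25.0% of all genes. These counts do not exceed that share. Psmb1, a structural beta subunit, had 98.9, 90.7, 91.9, 79.5 and 75.6 CPM in WT combination libraries, against 105.0, 104.5, 117.7, 112.2 and 105.6 CPM in WT isotype libraries. These groups were apart, with a log2 fold change of -0.30 (SE 0.076, adjusted p = 0.00314). Psma2 was at -0.20 (adjusted p = 0.0329), and the other ubiquitous alpha subunits lay between -0.21 for Psma7 and 0.08 for Psma3. Psma8 had 1.01, 0.508, 0.881, 0.593 and 1.04 CPM in WT combination libraries, against 0.718, 0.399, 0.0588, 0.401 and 0.717 CPM in WT isotype libraries. At this depth its groups overlapped, and the log2 fold change of 0.82 carried an SE of 0.47 (adjusted p = 0.149).

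The activators outside the interferon-induced pair and the inhibitor were lower. Psme3, which forms the nuclear PA28 gamma activator, had 157.8, 121.7, 149.6, 129.1 and 118.1 CPM in WT combination libraries, against 139.3, 153.7, 178.3, 169.1 and 171.2 CPM in WT isotype libraries. The groups overlapped and the log2 fold change was -0.25 (SE 0.085, adjusted p = 0.022), a call lost without combination replicate 2, 4 or 5 or isotype replicate 3, where adjusted p was 0.0537, 0.0618, 0.0702 and 0.0755, or with only these 2 groups in the fit (0.0638). Psmf1, the inhibitor PI31, had 53.2, 45.1, 49.8, 42.1 and 40.7 CPM in WT combination libraries, against 54.2, 56.4, 56.7, 56.1 and 59.6 CPM in WT isotype libraries. These were narrowly apart, at -0.28 (SE 0.084, adjusted p = 0.0113), and the PA200 activator gene Psme4 was at -0.25 (adjusted p = 0.0186). Of 7 assembly chaperones 3 were lower, namely Psmg2, Psmg1 and Psmd9, where 25.0% of all genes were called lower. Psmg2 had 13.3, 10.5, 12.9, 8.84 and 9.90 CPM in WT combination libraries, against 15.1, 15.03, 20.1, 18.1 and 16.2 CPM in WT isotype libraries. It had the lowest log2 fold change of the 47 genes, at -0.60 (SE 0.14, adjusted p = 0.0025), with no overlap.

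**Figure D3:**
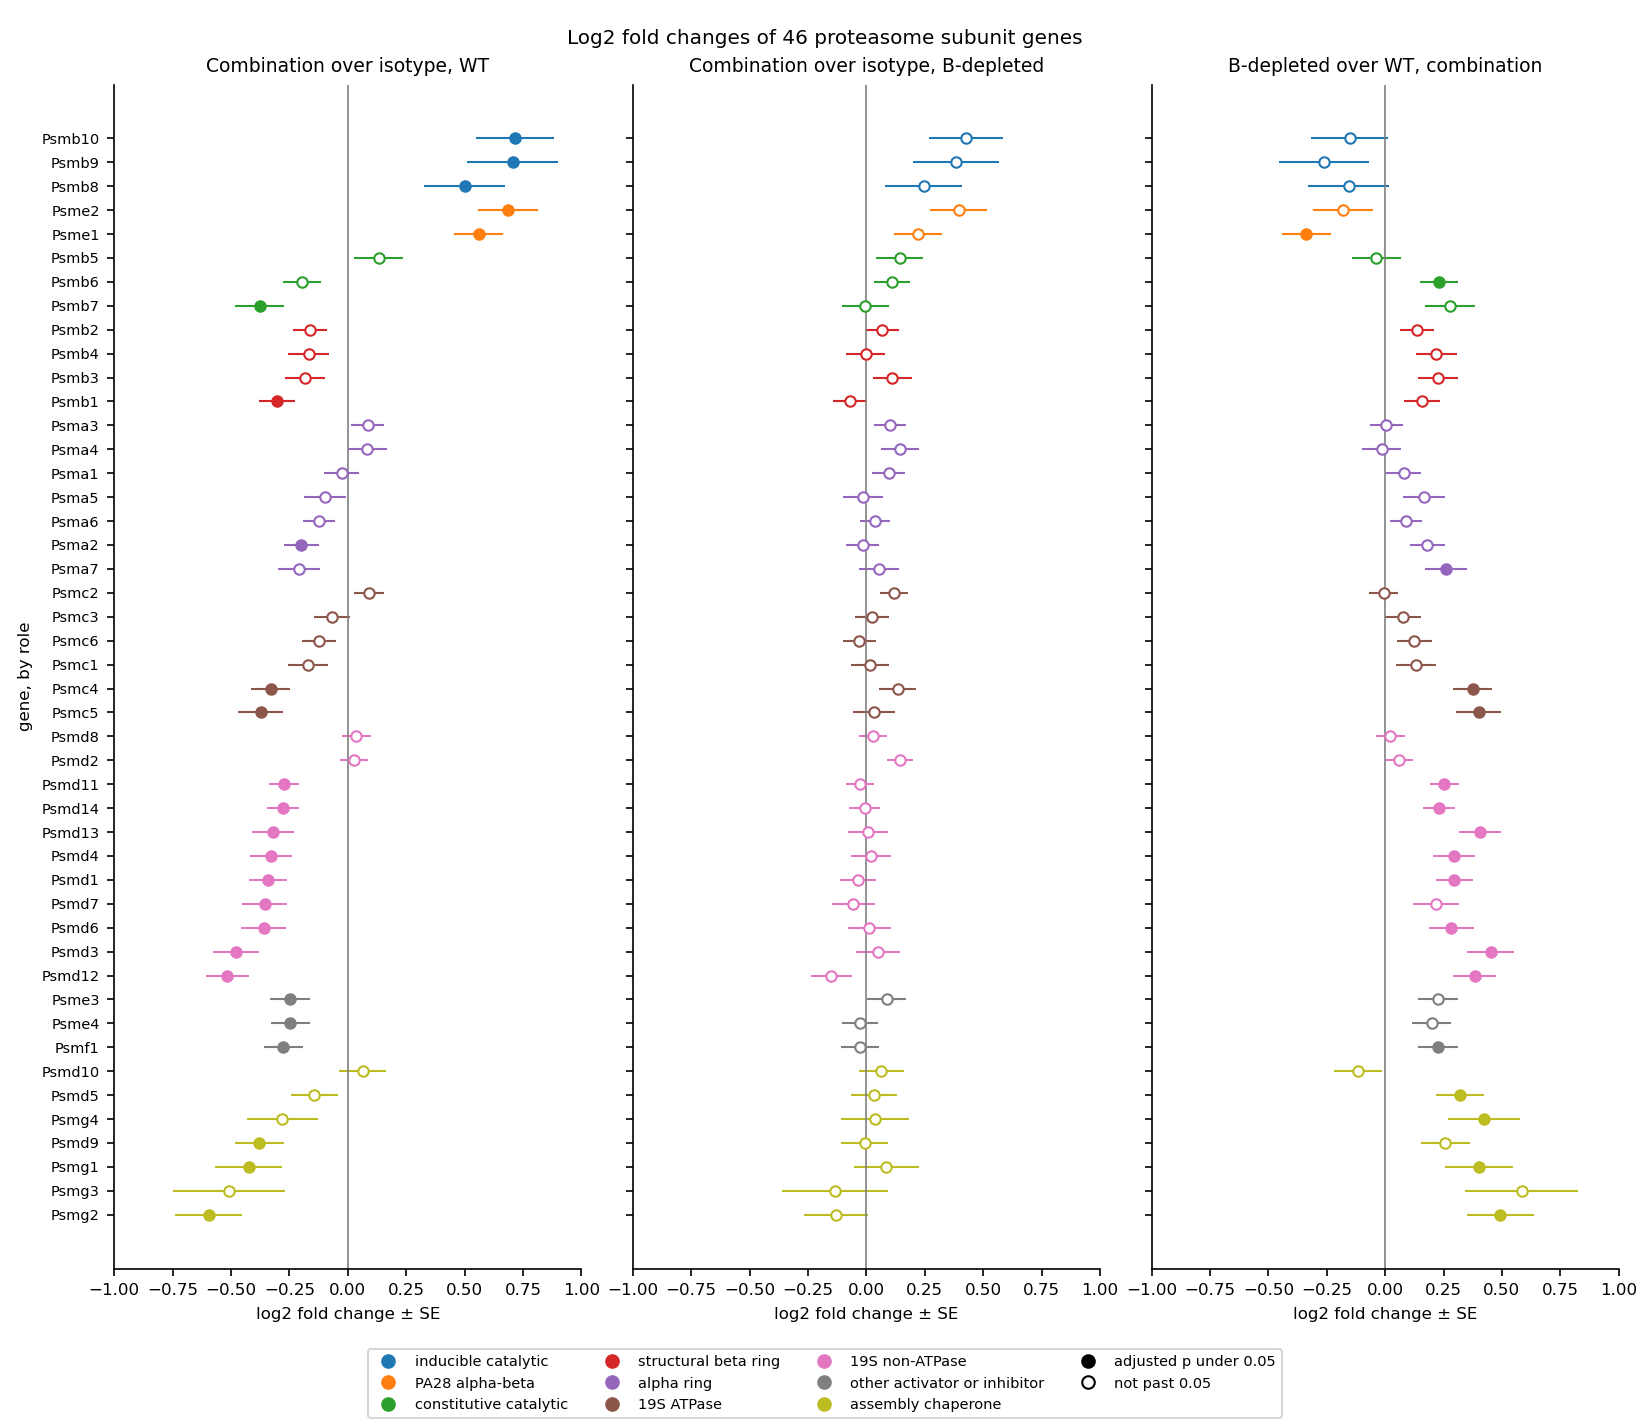
Log2 fold change ± SE of 46 subunit genes (Psma8 is left out) by role, for combination over isotype in WT tumours, combination over isotype in B-depleted tumours, and B-depleted over WT tumours under the combination; filled points passed an adjusted p of 0.05. In WT tumours the 5 inducible genes lie between 0.50 and 0.71 and the filled points of the other roles lie below 0, in B-depleted tumours no point is filled, and in the third panel 17 filled points lie above 0 and Psme1 below.

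The cell content moved with this comparison. In WT combination tumours 7 of 7 T-cell markers were higher, as were 6 of 7 macrophage and 1 of 5 dendritic-cell markers. Of the 7 B-cell markers 5 were tested, and all 5 were higher. Lower were 8 of 9 hepatocyte and hepatoma markers. Of all genes 25.0% were called higher and 25.0% lower. In bulk tumours fewer cells of a type and less RNA per cell cannot be told apart, and the part of these cell types in the subunit differences was not tested. Transcripts of 4 Y-linked genes, read as one measure of composition because the labels do not give the sex of the mice or of the graft, summed to 135 to 250 CPM in WT combination tumours and 47.6 to 79.2 CPM in WT isotype tumours. With the log2 of that sum as a covariate, 0 of the 47 genes were called in the WT response and 77 of all genes were. The sum did not overlap between the 2 groups, so this fit separates it poorly from the treatment. SEs were 0.29 for Psmb8 and 0.16 for Psme1, wider than those given earlier without the covariate. Both the log2 fold changes and the errors moved in this fit, and the reason for the loss of calls was not tested. The 5 inducible genes then had log2 fold changes of 0.36 to 0.57, against 0.50 to 0.71 without the covariate. The other 42 had a median of 0.05, with 28 above 0 and 14 below, against a median of -0.23 without it.

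In B-depleted tumours 0 of the 47 genes were called between combination and isotype (edgeR), against 0.341% of all genes, and DESeq2 and limma voom also called 0. At an unadjusted p under 0.05 there were 4, of which 3 were inducible genes, against 14.3% of all genes. The 5 inducible genes had log2 fold changes of 0.22 to 0.43 with a median of 0.38, and the other 42 had a median of 0.02. Psmb10 had 53.1, 61.8, 57.6, 46.8 and 45.5 CPM in B-depleted combination libraries. In the 6 B-depleted isotype libraries its lowest, median and highest values were 21.8, 40.8 and 56.2 CPM. The highest isotype library lay within the combination range, and the log2 fold change was 0.43 (SE 0.16, adjusted p = 0.23). Psme2 had 58.0, 56.1, 61.6, 51.8 and 47.8 CPM in B-depleted combination libraries, against a lowest of 29.01, a median of 45.0 and a highest of 52.2 CPM in B-depleted isotype libraries. They overlapped, with a log2 fold change of 0.40 (SE 0.12, adjusted p = 0.155).

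Psmb9 had 87.4, 90.4, 90.1, 85.5 and 60.8 CPM in B-depleted combination libraries, against a lowest of 31.6, a median of 66.7 and a highest of 81.9 CPM in B-depleted isotype libraries. Combination replicate 5 lay inside the isotype range and the other 4 above it, with a log2 fold change of 0.38 (SE 0.19, adjusted p = 0.353). Psmb8 and Psme1 also overlapped, with log2 fold changes of 0.25 (SE 0.16, adjusted p = 0.506) and 0.22 (SE 0.10, adjusted p = 0.324). B-depleted isotype replicate 6 had the lowest value of all 5 inducible genes in its group and the lowest T-cell sum, 39.1 CPM. Without it the log2 fold changes of Psmb8, Psmb9, Psmb10, Psme1 and Psme2 were 0.13, 0.25, 0.30, 0.15 and 0.31. Without the 4 B-depleted isotype libraries whose B-cell marker sum exceeded the lowest WT isotype library, Psmb10, Psme1 and Psme2 were called, at 0.89, 0.48 and 0.77 (adjusted p = 0.0135, 0.0251 and 0.00717), beside 645 of 20234 genes called in that fit. The isotype arm then held only replicates 1 and 6, whose T-cell sums of 55.7 and 39.1 CPM were the lowest of the 6, and the marker sum that chose them is mostly Cd22.

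The pair ratios in B-depleted tumours overlapped between the antibody arms. The log2 differences between combination and isotype were 0.14 for Psmb8 to Psmb5, 0.32 for Psmb9 to Psmb6 and 0.48 for Psmb10 to Psmb7, with adjusted p of 0.697, 0.444 and 0.227 (exact permutation tests). Without B-depleted isotype replicate 6 they were -0.03, 0.13 and 0.31, with adjusted p of 0.865, 0.561 and 0.274 (exact permutation tests). Psmb10 made up 41.2% ± 4.91 of its pair per kilobase in B-depleted combination tumours (SD, n = 5) and 33.7% ± 7.90 in B-depleted isotype tumours (SD, n = 6), or 61.2% and 53.03% per kilobase of all annotated exons.

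Depletion by itself was read under isotype. There 0 of the 47 genes were called between B-depleted and WT tumours, against 0.0% of all genes, 0 had an unadjusted p under 0.05 against 2.95% of all genes, and DESeq2 and limma voom also called 0. The log2 fold changes of the inducible genes lay between 0.00 and 0.14, and the median of the other 42 was -0.04. Of the 7 B-cell markers 5 were tested in this comparison, and all 5 had log2 fold changes below 0 (median -1.02) with 0 called and 1 not overlapping.

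Under the combination, B-depleted tumours had higher levels of 17 of the 42 other subunit genes than WT tumours and lower levels of Psme1, with 29.1% of all genes called, 15.5% higher and 13.5% lower. This comparison shares the WT combination libraries with the WT response, so the 2 sets of values are not independent. By role, 8 of 11 Psmd non-ATPase subunits, 2 of 6 ATPases and 4 of 7 chaperones were higher. Psmd3 was higher by 0.45 (SE 0.099, adjusted p = 0.00796), Psmc5 by 0.40 (SE 0.096, adjusted p = 0.00988) and Psmd12 by 0.38 (SE 0.092, adjusted p = 0.01). Psmc5 had 45.2, 41.7, 47.9, 45.9 and 38.8 CPM in B-depleted combination libraries, all above the WT combination range of 29.4 to 37.3 CPM. Of the other genes 8 lay wholly above, against 4.51% of all genes.

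Psme1 had 104.7, 96.8, 101.6, 94.1 and 93.3 CPM in B-depleted combination libraries, against 128.3, 127.7, 127.0, 117.6 and 112.0 CPM in WT combination libraries. The groups did not overlap, as in the 6.03% of all genes that lay wholly below, with a log2 fold change of -0.34 (SE 0.11, adjusted p = 0.0252). That call was lost without B-depleted replicate 2, 3 or 4 or WT replicate 2, at adjusted p of 0.0553, 0.0505, 0.0547 and 0.0529, and with no filter on low counts, at 0.0542. The other 4 inducible genes were not called, with log2 fold changes of -0.26 to -0.15. The Psmb9 to Psmb6 ratio was 0.920 to 1.37 in B-depleted combination libraries, against 1.58 to 1.85 in WT combination libraries. The log2 difference was -0.51 (exact permutation test, p = 0.00794, adjusted p = 0.0397). Without any 1 WT combination library the adjusted p was 0.0595 (exact permutation test). The groups were then 4 against 5, which allows fewer splits, and they still did not overlap. The Psmb10 to Psmb7 ratio differed by -0.43 (exact permutation test, adjusted p = 0.0595). Without B-depleted replicate 2 that difference was -0.53 (exact permutation test, adjusted p = 0.0298). The Psmb8 to Psmb5 ratio differed by -0.12 (exact permutation test, adjusted p = 0.671). Psmb6 (adjusted p = 0.0401) and Psmf1 (adjusted p = 0.0498) were called higher close to the threshold, and each lost its call under many of the alternatives. Without B-depleted combination replicate 5, Psmb7 and Psme3 were called higher, at 0.30 and 0.25 (edgeR, adjusted p = 0.0385 and 0.0379). Psmb6 lost its call there (adjusted p = 0.0529), and 7604 of 19343 genes were called in that fit. Leaving out single libraries moved the 18 calls to between 7 (without WT combination replicate 4, with 2182 of 19245 genes called) and 23 (without WT combination replicate 1 or 3, with 6138 of 19306 and 7101 of 19318). They numbered 8 and 9 without B-depleted combination replicates 3 and 4, and 10 and 9 without WT combination replicates 2 and 5. With the Y-linked covariate 0 were called, and its sum was 85.9 to 169 CPM in B-depleted and 135 to 250 CPM in WT combination tumours.

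The cell content moved with this comparison too. In B-depleted combination tumours 8 of 9 hepatocyte and hepatoma markers were higher, with sums of 1305 to 2987 CPM against 352 to 1695 CPM in WT combination tumours. Lower were 5 of 7 T-cell markers, whose sums are given above, and 5 of 7 macrophage markers (809 to 1910 CPM against 1383 to 2869 CPM). Also lower were all 5 B-cell markers tested, 3 of 5 dendritic-cell markers and 4 of 4 Y-linked genes. The part of these cell types in the subunit differences was not tested.

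Whether the response to the combination differed between B-depleted and WT tumours was tested as an interaction, the response in B-depleted tumours minus that in WT tumours. It called 0 of 47 genes by edgeR, against 0.0262% of all genes, while DESeq2 called 2, beside 1181 of 16827 genes, and limma voom 0. At an unadjusted p under 0.05 there were 23, of which 22 were other subunits and 1 was Psme1, against 25.6% of all genes. The inducible genes had interaction values of -0.34 to -0.25 and the others a median of 0.25. The smallest p-values were those of Psmd3 at 0.53 (SE 0.14, adjusted p = 0.0763) and Psmc4 at 0.46 (SE 0.12, adjusted p = 0.0745). Without WT isotype replicates 1 and 2, 9 subunit genes were called beside 2007 of 19778 genes, and without WT combination replicate 3 there were also 9, beside 1540 of 19318. Without the 4 B-depleted isotype libraries with the higher B-cell marker sums, 1488 of 20234 genes had an unadjusted p under 0.05 (edgeR). With all libraries 4881 of 19061 did. Only replicates 1 and 6 of B-depleted isotype were left in that fit, so the counts differ in power as well. With the Y-linked covariate the median of the other subunits was 0.08. The ratio interactions were -0.62 for Psmb9 to Psmb6, -0.61 for Psmb10 to Psmb7 and -0.25 for Psmb8 to Psmb5 (exact permutation tests, adjusted p = 0.179, 0.197 and 0.664). Without B-depleted isotype replicate 6 the first 2 were -0.81 and -0.78, with adjusted p of 0.0298 and 0.0397 (exact permutation tests). Without the 4 libraries named above they were -0.12 and -0.05, with adjusted p of 0.846 and 0.916 (exact permutation tests). That alternative was chosen after the data were seen. The interaction tests of the ratios exchanged WT and B-depleted labels within each antibody arm. Their p-values are therefore exact only where depletion has no effect in either arm, which is narrower than equal responses.

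Taking the mean log2(CPM + 0.5) of the 5 inducible genes minus that of 41 other genes, which leaves out Psma8 and Psmb11, the difference was 0.88 to 1.103 in WT combination libraries and -0.21 to 0.60 in WT isotype libraries. It was 0.44 to 0.72 in B-depleted combination libraries and -0.41 to 0.68 in B-depleted isotype libraries. WT combination libraries stood apart from the other 3 groups on this scale, and the 2 B-depleted arms overlapped.

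**Figure D4:**
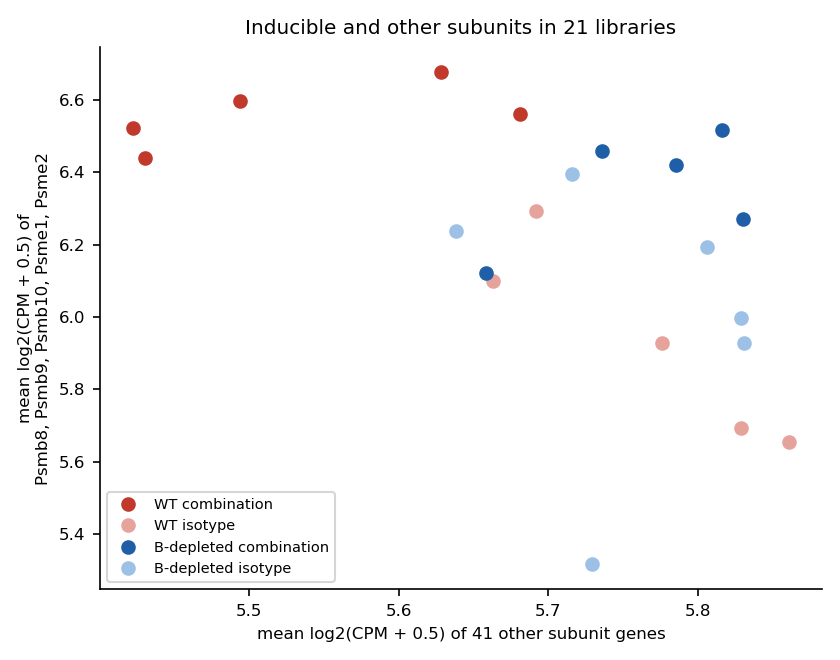
Mean log2(CPM + 0.5) of the 5 inducible genes (y axis) against that of 41 other subunit genes (x axis) in 21 libraries, coloured by group. The 5 WT combination libraries lie between 6.44 and 6.68 on the y axis, 3 of them at the far left, and B-depleted isotype replicate 6 lies at the bottom.

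Genes around the proteasome were read from lists chosen by role. Of all genes, 25.0% were called higher and 25.0% lower in WT combination tumours, and 0.341% were called in the B-depleted response. Of 8 proteasome genes with other symbols, 7 were lower in WT combination tumours and 0 higher, including the thioredoxin-like Txnl1 at -0.65 (adjusted p = 0.000416) and the ubiquitin receptor Adrm1 at -0.44 (adjusted p = 0.0022). Of 5 genes that control transcription of the constitutive subunits, 2 were higher and 1 lower, namely the segregase Vcp at -0.48 (adjusted p = 0.000674). Of 9 interferon-gamma signalling genes, 8 were higher and Jak2 was lower. Ifng itself had 7.36 to 11.1 CPM in WT combination libraries, against 1.00 to 3.39 CPM in WT isotype libraries, a log2 fold change of 2.33 (adjusted p = 5.8e-05). It was also called in B-depleted tumours, with 3.72 to 5.78 CPM under the combination and 0.522 to 2.67 CPM under isotype, a log2 fold change of 1.51 (SE 0.31, adjusted p = 0.0373). Of 11 genes of peptide transport and class I loading, 8 were higher and the chaperone Canx lower in WT combination tumours, with H2-K1 at 1.76 and Tap2, which lies next to Psmb8, at 1.02. In B-depleted tumours 0 of those 11 were called, and H2-K1 had 0.73 (adjusted p = 0.219). Of 6 ubiquitin and E1 genes, Ubb was higher and Uba6 lower in WT combination tumours.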

How the data were processed

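Per the labels' protocols, total RNA from frozen tumours was made into libraries with a stranded mRNA kit. The tools named in the submitters' processing notes are STAR 2.7.2a and cutadapt 2.4, with GRCm38 as the build. The sources used here do not say how reads were assigned to genes, on which strand or with which annotation. The authors deposited raw read counts per Ensembl gene for 21 libraries, 9.52 to 19.17 M per library, with 0 columns of other samples. Of 55487 gene IDs, 55227 matched a symbol in GENCODE M21.

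Counts were fitted in 1 model of 4 groups with edgeR 4.0.16 (filterByExpr, TMM scaling, robust quasi-likelihood test) over 19061 genes, with Benjamini-Hochberg adjustment over all of them and a threshold of 0.05. The edgeR code was tested on simulated data with changes larger than the subunit changes given here. Recovery of changes as small as these was not tested. CPM were scaled by the library total alone, without TMM factors. Pair ratios used counts plus 0.5 and exact permutation tests, two-sided, adjusted over 15. DESeq2 1.42.0, limma 3.58.1 (voom), RLE scaling, no filter, thinning to 9.52 M, replicate blocks, a Y-linked covariate and left-out libraries were alternatives. Values per library are given for the inducible genes, their constitutive counterparts and the member with the largest WT change in each other role; genes outside the family are up to 4 per list with the smallest p. The members and lists were chosen with earlier results of these data known. Sequences are from RefSeq.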

Additional observations from a re-analysis of the deposited data

Results flagged for a closer look

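Within the 4 groups, 188 sets of CPM values (47 genes in each group) were examined for a single library far from the rest of its group, and 10 were found; chance alone flags about 1 in 20 such sets. In WT combination tumours these were Psmb10 in replicate 3 at 64.2 CPM (the other libraries at 55.5 to 57.3), Psmb2 in replicate 1 at 60.5 CPM (49.3 to 51.6) and Psmb4 in replicate 3 at 70.5 CPM (54.1 to 58.5). In B-depleted combination tumours, Psmb9 in replicate 5 was low at 60.8 CPM (85.5 to 90.4), Psmb6 in replicate 3 was high at 72.6 CPM (63.6 to 66.2), Psmd7 in replicate 2 was low at 42.0 CPM (50.3 to 52.3) and Psmg3 in replicate 2 was high at 7.16 CPM (4.21 to 5.04). In B-depleted isotype tumours, Psmc1 in replicate 5 was low at 36.2 CPM (41.2 to 43.4) and Psmc6 in replicate 3 was low at 68.1 CPM (75.7 to 80.2). In WT isotype tumours, Psmg3 in replicate 2 was low at 2.79 CPM (5.15 to 5.82).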

How the results depend on the processing

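The counts of subunit genes called were 25 in the WT response, 18 for depletion under the combination and 0 in the other 3 comparisons. With the Y-linked covariate, 0 were called in the WT response and 0 for depletion under the combination. The WT values of Psmb7, Psme3, Psmb1, Psmf1 and Psmg2 reversed to 0.0458, 0.0969, 0.0188, 0.0791 and 0.0520. The covariate did not overlap between the WT groups, which widens the errors of that fit, and the cause was not tested. For depletion under the combination, 9 were called with no filter, where more genes were tested, and 11 with only the groups compared, which leaves fewer samples. DESeq2 called 2 in the interaction, and 9 were called there without WT isotype replicates 1 and 2. In the B-depleted response, 3 were called without the libraries above the lowest WT library in B-cell markers. Leaving out libraries gave 20 to 31 calls in the WT response (31 without both WT isotype replicates 1 and 2), 7 to 23 for depletion under the combination and 0 to 9 in the interaction; in the other 2 comparisons leaving out any 1 library gave 0.

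Leaving out 1 library, or both WT isotype replicates 1 and 2, moved the log2 Psmb9/Psmb6 difference to 0.84 to 1.17 in the WT response, -0.55 to -0.40 for depletion under the combination and -0.85 to -0.52 in the interaction. For Psmb10/Psmb7 the ranges were 0.96 to 1.36, -0.53 to -0.33 and -0.88 to -0.47. With both WT isotype replicates 1 and 2 left out, the WT response was 1.17 for Psmb9/Psmb6 and 1.36 for Psmb10/Psmb7. Neither was then past the threshold, and leaving out 1 of these replicates gave at most 1.03 and 1.24. Psmb9/Psmb6 for depletion under the combination, at -0.51, was also no longer past it. That comparison holds no WT isotype library, so its difference and its unadjusted p (exact permutation test, 0.00794) were unchanged. Only the adjustment shared with the other ratio tests moved, so this loss says nothing about the stability of that difference. In the interaction Psmb9/Psmb6 and Psmb10/Psmb7 passed the threshold without B-depleted isotype replicate 6, at -0.81 and -0.78, the lowest values with 1 library left out. Direction held in all of these. Without the 4 B-depleted isotype libraries above the lowest WT library in B-cell markers, the interactions were -0.12 and -0.05, that of Psmb8/Psmb5 was 0.18 where it is -0.25 with all libraries, and the B-depleted response was 0.57 for Psmb8/Psmb5, 0.82 for Psmb9/Psmb6 and 1.049 for Psmb10/Psmb7. With 1 library left out, the Psmb8/Psmb5 difference in the B-depleted response ranged from -0.03 to 0.21.

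Title numbers were not taken as pairing the samples. Same-numbered libraries had deviations correlated at -0.357 to 0.553 with a mean of 0.034. Libraries with different numbers had -0.525 to 0.493 with a mean of -0.0077, and such values cannot exclude a pairing. The replicate block gave 26 calls in the WT response, 19 for depletion under the combination and 0 elsewhere; a block by the number in the description code gave 23, 17 and 0. Genes near 1 CPM, such as Psma8, are limited by depth.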
